A study of Mus musculus with 36 samples.

Results

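Chromatin accessibility was followed at 7 genes that encode ligands of the tumour necrosis factor (TNF) superfamily: Tnf, Lta, Ltb, Tnfsf9, Tnfsf10, Tnfsf15 and Tnfsf4. Every deposited peak that overlapped the body of such a gene or the 10 kb to either side was taken, which gave 47 of 119751 peaks. The choice of peaks at these genes used positions and not measured levels, but the genes were chosen with earlier results of these data known. The windows held 7 peaks for Ltb, 6 for Tnf, 7 for Lta, 11 for Tnfsf9, 5 for Tnfsf10, 14 for Tnfsf15 and 6 for Tnfsf4. The first 3 genes lie side by side on chromosome 17 and shared their windows, so their 11 distinct peaks were each given to the nearest of the 3 genes: 6 to Ltb, 1 to Tnf and 4 to Lta.

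The cells were dendritic cells grown from bone marrow of female C57BL/6J mice aged 6 to 8 weeks with the growth factor GM-CSF at 15 ng/mL, and their open chromatin was mapped by ATAC-seq, which relies on a transposase to cut and tag accessible DNA. All groups carried the same genotype and were sampled 6 h after stimulation, with 2 libraries a group and 36 in all. The 18 groups were an unstimulated control (Ctrl), 6 single ligands, with P for PAM, L for LPS, H for HMW, S for SeV, cG for 3',3'-cGAMP and Z for Zymosan depleted, the 8 pairs PL, PH, LH, PS, PcG, ScG, ZS and ZcG, and the 3 triplets PLH, PScG and ZScG. No label says whether the 2 libraries of a group came from separate mice or cultures, so the p-values measure the spread between these libraries, which may be technical. The estimate of that spread was largely shared across peaks, with a median of 186 prior degrees of freedom against 18 residual.

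TNF superfamily ligands are trimeric proteins, mostly anchored in the cell membrane, that bind receptors of the TNF receptor superfamily and signal for inflammation, survival or death of the cell that carries the receptor. In dendritic cells, Tnf is an early target of NF-kappa-B after microbial sensing, Tnfsf9 (4-1BB ligand) and Tnfsf4 (OX40 ligand) costimulate T cells, and Tnfsf15 (TL1A) acts on T cells through Tnfrsf25. Lta and Ltb form the lymphotoxin that shapes lymphoid organs, and Tnfsf10 (TRAIL) is a death ligand known as an interferon-induced gene.

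Levels are given as CPM, the count scaled to a fixed library total outside the mitochondrial genome, with libraries scaled to each other by the TMM method. Counts outside the mitochondrial genome ranged from 8181254 to 21985891 per library, and the 47 peaks together held 1577 to 11622 of them. The libraries differed in the share of counts that fell on the mitochondrial genome. Its group mean was 58.3% to 63.0% in Ctrl, Z, ZcG, ScG and ZScG and 44.4% to 54.5% in the other 13 groups, and the labels give no batch. For those 13 groups, stimulation and this difference from the control cannot be told apart, whereas Z, ZcG, ScG and ZScG can be set against the control at a like share, and P, L, H, S and cG can be set against each other. All 8 dendritic and myeloid markers examined had a peak at their start, from 0.803 CPM at Zbtb46 to 80.0 CPM at Csf2ra. Of the 15 markers of other cell types, 11 had no peak within 1 kb of a start, among them Cd3e, Ncr1 and Ly6g. Among the other 4, Klrb1c was at 12.9 CPM, Cd4 at 5.5 CPM and Epcam at 1.9 CPM. Over the 17 stimulations, the start peak of Csf2ra was called higher in 13, those of Irf8 and Csf1r each in 7, that of H2-Ab1 in 3 and that of Itgax in 2. That of Spi1 was higher in 1 and lower in 6, and those of Cd74 and Zbtb46 were each lower in 1. Of the other cell types' markers, Cd4 was higher in 5, Klrb1c lower in 5 and Epcam lower in 1, and their part in the results below was not tested. Over the 17 stimulations, 13.0% of all tested peaks were called higher and 12.3% lower. In such bulk libraries, fewer cells with an open site and less opening per cell cannot be told apart.

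The start peaks of Tnf, Tnfsf10 and Tnfsf15 covered the 250 bases upstream of the annotated start in RefSeq (GRCm38.p6), and these are shown because the 3 starts ranked the ligands in different orders. Capitals mark the TATA box TATAAA in Tnf and the interferon regulatory factor (IRF) core AANNGAAA, on either strand, in Tnfsf10 and Tnfsf15. Both motifs were chosen after the sequences had been seen. Each sequence reads 5′ to 3′ on the gene's strand and ends at the base before the start. Tnf lies at chr17:35202008-35202257 (minus strand), Tnfsf10 at chr3:27316827-27317076 (plus strand) and Tnfsf15 at chr4:63745060-63745309 (minus strand).
Tnf: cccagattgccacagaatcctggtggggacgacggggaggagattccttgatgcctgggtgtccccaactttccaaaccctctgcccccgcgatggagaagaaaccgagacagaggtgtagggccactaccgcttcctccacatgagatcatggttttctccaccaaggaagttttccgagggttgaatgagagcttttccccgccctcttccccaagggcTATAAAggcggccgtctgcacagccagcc
Tnfsf10: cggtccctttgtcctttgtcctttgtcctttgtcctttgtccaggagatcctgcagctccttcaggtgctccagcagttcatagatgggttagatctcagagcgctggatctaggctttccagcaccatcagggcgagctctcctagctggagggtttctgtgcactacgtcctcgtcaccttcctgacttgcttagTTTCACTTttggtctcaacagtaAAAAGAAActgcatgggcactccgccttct
Tnfsf15: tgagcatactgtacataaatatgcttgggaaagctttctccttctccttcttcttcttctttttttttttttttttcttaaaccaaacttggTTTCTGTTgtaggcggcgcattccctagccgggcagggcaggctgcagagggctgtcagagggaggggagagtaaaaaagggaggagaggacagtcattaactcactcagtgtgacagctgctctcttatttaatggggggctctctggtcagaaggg

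The TATA box of Tnf spanned bases -29 to -24 from the start, and 12.4% of 32851 promoters held that motif in the same window. Tnfsf10 held the IRF core at bases -53 to -46 on the opposite strand and at -30 to -23 on the gene's own strand, and Tnfsf15 held it at -158 to -151 on the opposite strand. The share of promoters with an IRF core was 21.3%. Of 4 motifs listed earlier, the kappa-B consensus (7.25% of promoters), the AP-1 site TGANTCA (6.75%), the ISRE core GAAANNGAA (7.13%) and the PU.1 core GAGGAAGT (2.44%), none lay in the windows of Tnf, Tnfsf10, Tnfsf15 or Lta. The ISRE core and the IRF core can overlap each other, and both strands were read for all 6 motifs. Ltb alone held a kappa-B match, at bases -87 to -78 on the opposite strand, in a window that no peak covered. A match in these letters is a description, not a measured binding site. Tnfsf9 and Tnfsf4 had no promoter entry.

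Against the unstimulated control, the ligand loci opened far more often than they closed. Over 17 stimulations and 47 peaks (799 tests), 347 were higher and 12 were lower at an adjusted p under 0.05 in edgeR's quasi-likelihood test with Benjamini-Hochberg adjustment. The same threshold called 13.0% of all 119464 tested peaks higher and 12.3% lower over the 17 contrasts. The 17 contrasts share the same 2 control libraries. Tnf had its single peak higher in all 17. Tnfsf15 had 144 of 238 tests higher, the peaks nearest Lta 43 of 68, Tnfsf4 45 of 102, Tnfsf9 63 of 187, Tnfsf10 22 of 85 and those nearest Ltb 13 of 102.

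The single ligands differed in how many of the 47 peaks they opened. S raised 24 (14.1% of all tested peaks), L raised 23 (11.2%) and cG raised 23 (11.6%). P raised 13 (11.1%), H 14 (5.21%) and Z 7 (4.16%). The 7 of Z, which shares the control's range of mitochondrial share, lay at Tnf, Tnfsf9, Tnfsf10, Tnfsf15 (2 peaks) and Tnfsf4 (2 peaks). Without Ctrl library 1, fewer of the 47 peaks were called for P, L and H. The share of all tested peaks called in that fit was not taken.

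Among the pairs, PS raised 23 (17.3%), ScG 24 (14.4%), ZS 23 (14.4%), PcG 22 (16.8%), PL 21 (13.8%), PH 20 (13.6%), ZcG 20 (11.4%) and LH 17 (11.3%). Of the triplets, PScG raised 28 (19.0%), ZScG 24 (16.2%) and PLH 21 (14.9%). By count, PH exceeded both P and H, and LH lay below L; the differences between these counts were not tested. Fewer of the 47 peaks were also called for PH and LH without Ctrl library 1, again with no share over all tested peaks. The median log2 fold change over the 47 peaks ran from 0.42 (Z) to 1.22 (PScG), whereas the median over all tested peaks lay between -0.039 and 0.041. Scaling by total counts outside the mitochondrial genome moved the median of all peaks up by as much as 0.423 (L) and gave 415 member calls higher and 7 lower.

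**Figure D1:**
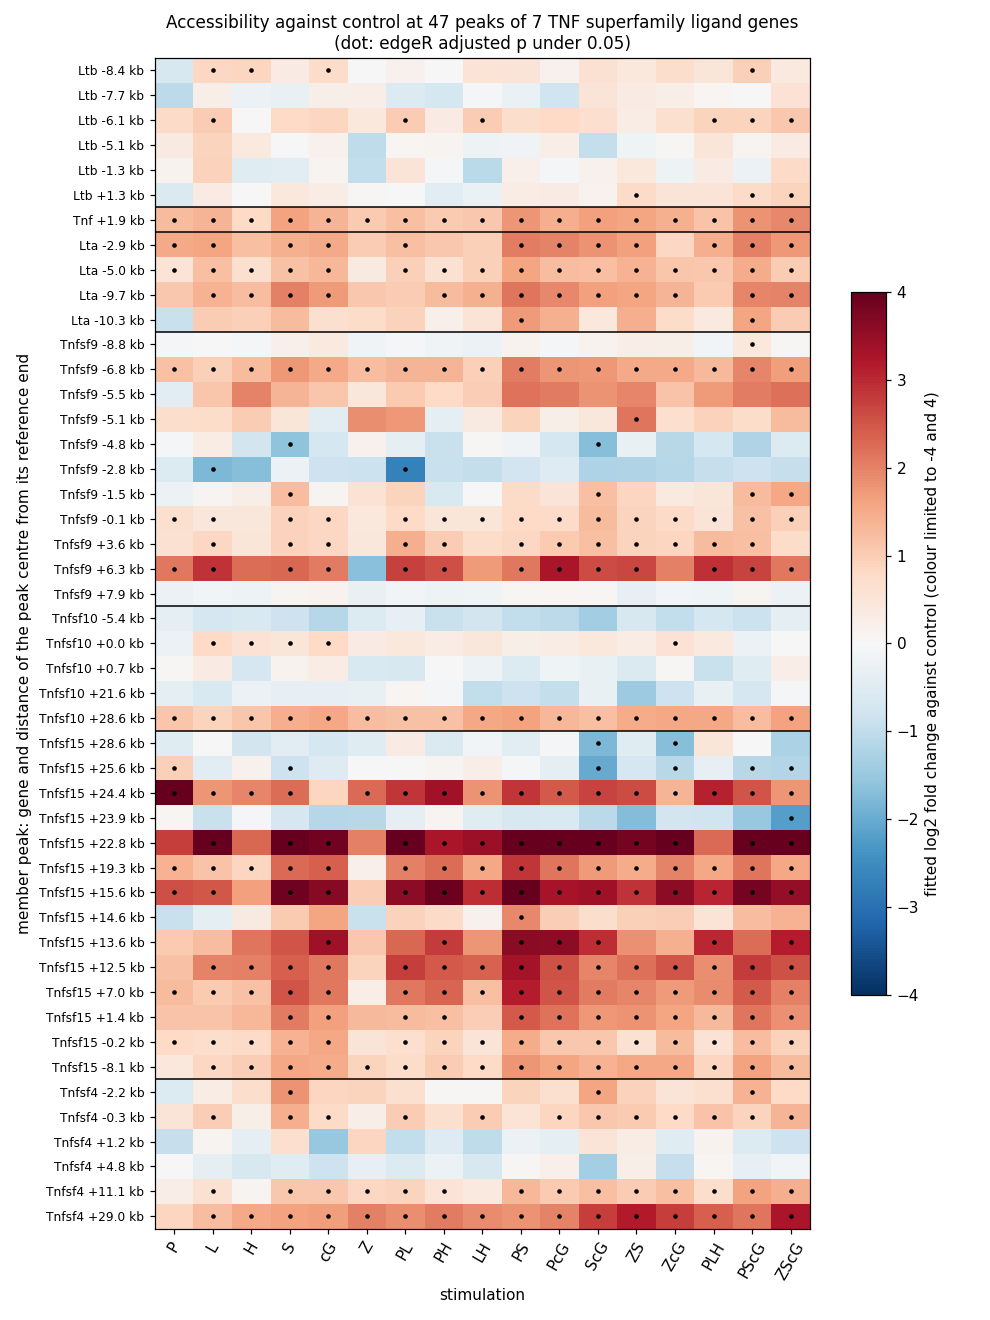
Fitted log2 fold change against the control at the 47 peaks (rows, grouped by gene, with the distance in kb of the peak centre from the annotated start, or from the lower-coordinate end of Tnfsf9 and Tnfsf4, whose strand was not given) in the 17 stimulations (columns). Dots mark calls; the Tnf row is called in all 17 columns, and calls of lower accessibility, 12 in all, lie at Tnfsf9 and Tnfsf15.

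Tnf, the cytokine that gives the family its name, had a single broad peak of 5900 bp (chr17:35197130-35203029, mm10) that covered the whole gene. The control libraries measured 23.3 and 22.0 CPM. With single ligands the levels were 48.9 and 59.8 for P, 53.6 and 61.8 for L, 39.2 and 40.0 for H, 69.4 and 69.2 for S, 55.0 and 61.6 for cG, and 46.1 and 47.9 for Z. Every stimulated library lay above both control libraries, with H lowest and S highest among the single ligands. The log2 fold change ran from 0.81 ± 0.11 (SE; adjusted p = 8.29e-09) for H to 1.62 ± 0.11 (adjusted p = 1.28e-30) for S. At a mitochondrial share like that of the control, Z reached 1.06 ± 0.11 (adjusted p = 9.34e-14).

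In pairs the Tnf peak measured 47.7 and 56.3 CPM for PL, 48.6 and 44.3 for PH, 51.7 and 43.6 for LH, 77.1 and 74.9 for PS, and 61.7 and 62.2 for PcG. It measured 67.2 and 73.4 for ScG, 67.4 and 66.8 for ZS, and 57.2 and 64.1 for ZcG. The triplets gave 51.4 and 47.8 for PLH, 77.0 and 81.5 for PScG, and 85.8 and 86.2 for ZScG. The highest group means belonged to ZScG (86.0), PScG (79.3), PS (76.0), ScG (70.3) and S (69.3), all of which contained S. Of the 17 steps between neighbours in the order of group means, 6 separated groups whose libraries did not overlap. ZScG exceeded ZcG by 0.50 ± 0.10 on the log2 scale (adjusted p = 0.000885), a call lost without ZcG library 1. All 17 calls against the control held when any library of either group was left out.

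Compared directly, without control libraries, the Tnf peak was higher with P and L than with H (log2 difference 0.46 ± 0.10, adjusted p = 0.000376, and 0.55 ± 0.10, adjusted p = 4.3e-05). S exceeded H by 0.81 and P by 0.35, the latter with an adjusted p of 0.00356. The P against H and P against S calls were each lost without 1 P library (the second and the first, respectively). S and cG differed by 0.25 (95% interval 0.05 to 0.44, adjusted p = 0.268), which did not pass.

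Lta, the secreted lymphotoxin chain, had no peak over its body or within 1 kb of its start. Its 4 nearest peaks lay 2435 to 9917 bp from the gene on its upstream side, and the farther 2 were nearer to another gene, Nfkbil1. The strongest, a 1301 bp peak (chr17:35209696-35210996), rose from 7.54 and 10.0 CPM in the control to 26.7 in each PS library and 20.4 and 24.1 with cG. It was higher in 16 of 17 stimulations, all but Z (11.9 and 10.8 CPM, adjusted p = 0.301). P gave less than L (-0.66 ± 0.15, adjusted p = 0.000943), S (-0.63) and cG (-0.80). A pair of weaker neighbours (chr17:35208013-35208584 and chr17:35214598-35215449) were higher in 12 and 13 of 17, of which 5 and 5 held when each library in turn was left out; most losses came without Ctrl library 2 at the first and without Ctrl library 1 at the second. At the 1301 bp peak 13 of the 16 held, the calls of P, H and PH being lost without Ctrl library 1, and those of P and H also without P library 1 and H library 2. The P against S difference there was lost without S library 1. The farthest (chr17:35215495-35215849) passed only in PS and PScG, calls that were each lost without Ctrl library 1.

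Ltb, the membrane-anchored lymphotoxin chain, had the smallest share of calls of the 7 genes. Its start peak (chr17:35195301-35196266) lay inside the gene, 794 bp from the annotated start. Control libraries gave 4.59 and 6.95 CPM, and the levels reached 9.72 and 12.1 in ZScG, 9.79 and 10.0 in PScG, and 9.14 and 10.5 in ZS. Those 3 groups were called higher (0.76 to 0.90 on the log2 scale), and each call was lost without Ctrl library 1. The P libraries (2.75 and 5.06) lay below those of L, S and cG in direct comparison (-0.88, -0.98 and -0.85), calls that were lost without P library 1. The widest-ranging Ltb peak of at least 1 CPM (chr17:35192920-35193405) was called in no stimulation, and L exceeded S there by 1.36 ± 0.45 (adjusted p = 0.0346), a call lost without any one of its 4 libraries. Another 4 peaks were nearer to Ltb than to Tnf or Lta, and 3 of those overlapped the neighbouring gene Lst1. Most of the 13 calls given to Ltb lay at these Lst1 peaks, with 4 at chr17:35185700-35186516 and 6 at chr17:35188076-35188708.

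Tnfsf15 had the widest range of group means among the 7 genes, 4.07 on the log2 scale. Broad peaks of 6310 bp (chr4:63722585-63728894) and 9228 bp (chr4:63733434-63742661) covered much of the gene body. The 9228 bp peak measured 7.54 and 9.26 CPM in the control, 21.1 and 19.3 with P, 17.6 and 17.1 with L, 16.7 and 21.5 with H, 46.1 and 50.0 with S, 36.1 and 37.2 with cG, and 11.2 and 9.02 with Z. S and cG libraries all lay above those of P, L and H, and Z overlapped the control. Direct comparison gave -1.25 ± 0.12 for P against S (adjusted p = 7.67e-18), -0.86 for P against cG, -1.47 for L against S and -1.34 for H against S. S and cG differed by 0.39 (95% interval 0.17 to 0.61, adjusted p = 0.0684).

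Both broad Tnfsf15 peaks were highest in PS. The 9228 bp peak reached 81.8 and 68.6 CPM in PS, 50.1 and 47.4 in PcG, 39.9 and 44.9 in PH, and 36.8 and 36.1 in PL, against 19.2 in each LH library. ScG gave 37.0 and 34.7, ZS 34.2 and 30.8, and ZcG 30.3 and 24.5. The triplets gave 30.7 and 31.4 for PLH, 50.8 and 42.0 for PScG, and 29.6 and 38.5 for ZScG. All 16 calls against the control at each broad peak held without any single library. PScG was below PS by 0.70 ± 0.11 on the log2 scale (adjusted p = 1.05e-05), PLH was above LH by 0.69 and PLH was below PH by 0.45, the last being lost without any of its 4 libraries. The 6310 bp peak followed the same order at its extremes, from 8.52 and 9.84 in the control to 73.5 and 59.5 in PS.

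At its start, Tnfsf15 (peak of 1245 bp, chr4:63744677-63745921) measured 9.18 and 10.8 CPM in the control and was highest with cG, at 30.1 and 28.7. PS gave 28.9 and 27.5, S 25.1 and 27.4, and ZcG 23.2 and 25.3, while P, L and H lay between 14.7 and 19.0. The peak was higher in 16 of 17 stimulations, with a log2 fold change of 1.55 ± 0.16 for cG (adjusted p = 1.23e-16). Z, at 15.2 and 13.6, did not pass (0.52 ± 0.17, adjusted p = 0.0514). S and cG each exceeded P, L and H in all 6 direct comparisons, by 0.59 to 0.86, with the H against S call lost without H library 2. A peak 7508 bp upstream (chr4:63752567-63753784) was also higher in 16 of 17, all but P, with 6 of those calls lost without Ctrl library 1. At the start peak, the calls of LH, ZS and PLH were lost without Ctrl library 1 and that of H without H library 1. Those of LH and PLH were also lost without their own first library.

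A peak of 681 bp, 3648 bp beyond the far end of Tnfsf15 (chr4:63720272-63720952), took a different order. The control gave 0.437 and 1.35 CPM and P 15.8 and 15.6. L gave 4.24 and 2.21, H 4.26 and 2.84, S 4.25 and 4.43, Z 4.72 and 4.2, and cG 1.75 and 1.58. P was thus highest of the single ligands, and cG, the highest at the start of the gene, was lowest. P was 4.08 ± 0.35 above the control on the log2 scale (adjusted p = 7.72e-22) and exceeded L, H, S and cG directly by 2.31, 2.12, 1.85 and 3.23 (adjusted p = 2.19e-19 for cG).

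The 4 highest means among the combinations belonged to groups with P, at lower levels than P alone. The libraries of PH measured 10.9 and 8.26 CPM, of PLH 7.89 and 7.67, of PL 7.46 and 5.91, and of PS 6.21 and 7.15. PcG gave 5.56 and 4.46 and PScG 5.12 and 5.34. Without P, the levels were 3.72 and 8.41 in ScG, 6.13 and 5.16 in ZS, 2.54 and 3.97 in LH, 1.57 and 3.12 in ZcG, and 3.13 and 3.17 in ZScG. No pair or triplet library reached the level of P alone. Of 16 calls against the control, those of L, H, LH, ZcG and ZScG were lost without Ctrl library 1.

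The next peak outward (604 bp, chr4:63719127-63719730) was also higher with P and was lower with some of the other stimulations. It stood at 4.26 and 4.73 CPM in the control and 8.62 and 8.74 with P, a rise of 0.95 ± 0.30 (adjusted p = 0.0131). The call with P was lost without either control library or P library 2. It fell with S, ScG, ZcG, PScG and ZScG, to 0.744 and 1.53 in ScG (-2.01 ± 0.40, adjusted p = 2.24e-05), and of these only the ScG call held without Ctrl library 2. Some peaks were almost closed in the control: 2 counts in each control library at chr4:63728928-63730031, against 38 and 62 with S and 86 and 142 with PS, and 1 and 0 counts at chr4:63722085-63722413, against 25 and 15 with S and 3 and 8 with P. Fitted fold changes of such peaks depend on the prior count, so they are drawn in the plots of fold changes but not given as values. All 14 peaks, from the one upstream to the one farthest downstream, also overlapped the annotated long noncoding gene Gm42294.

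**Figure D2:**
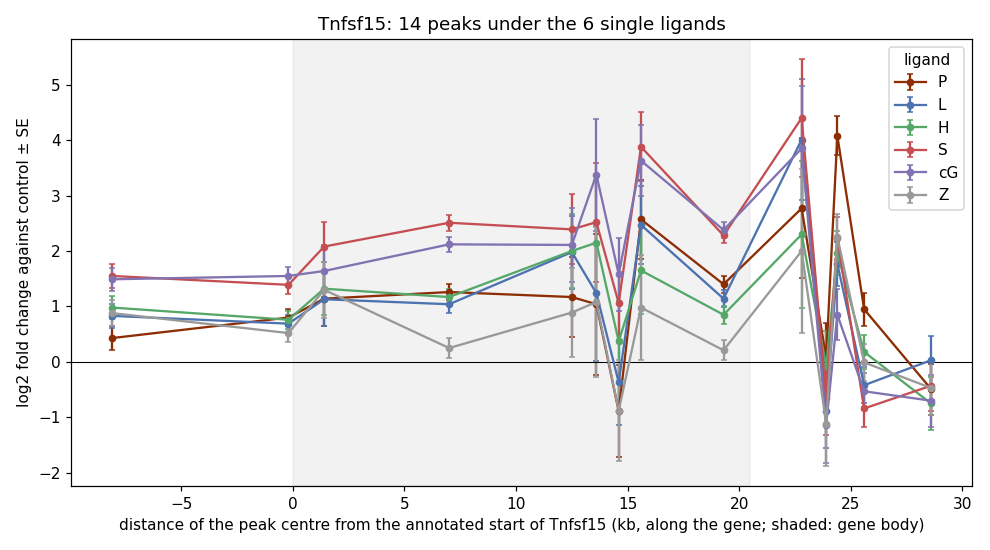
Log2 fold change against the control with its SE (vertical axis) at the 14 peaks of Tnfsf15, by distance of the peak centre from the annotated start in kb along the gene (horizontal axis, gene body shaded), for the 6 single ligands. S and cG lie above P, L and H over the start and the broad peaks, whereas P, at 4.08, stands above the others at the peak 24.4 kb from the start.

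At the start of Tnfsf10, P lay at the bottom of the single ligands. The start peak (959 bp, chr3:27316618-27317576) measured 11 and 9.45 CPM in the control, 9.08 and 8.16 with P, 15.6 and 19.7 with L, 14.2 and 16.6 with H, 15.3 and 13.3 with S, 17.3 and 18.3 with cG, and 13.9 and 11.9 with Z. Both P libraries lay below both control libraries, and all libraries of the other single ligands lay above. The means of PScG and ZScG also lay below that of the control. The peak was called lower with no stimulation, P included. It was called higher with L (0.79 ± 0.18, adjusted p = 0.000207), cG (0.80 ± 0.18, adjusted p = 0.000193), H (0.58), S (0.49) and ZcG (0.58). The calls of H, S and ZcG were lost without Ctrl library 2 and also without a library of the stimulated group (H 2, S 1 and ZcG 1; H also without Ctrl library 1), and those of L and cG held without any single library.

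None of the 7 groups that contained P was called higher at the Tnfsf10 start, against 5 of the 10 without it. Those 5 were L, H, S and cG alone and the pair ZcG. Log2 fold changes of the pairs with P were 0.43 (PL), 0.31 (PcG), 0.29 (PH) and 0.22 (PS). The sums of their single ligands' changes were 0.55, 0.56, 0.34 and 0.24. Uncalled pairs without P gave 0.45 (LH), 0.42 (ScG) and 0.3 (ZS), against sums of 1.38, 1.29 and 0.81. ZcG gave 0.58 against a sum of 1.13. P alone was lower than L by 1.04 ± 0.17 (adjusted p = 1.07e-06), than H by 0.83, than S by 0.73 and than cG by 1.05 (adjusted p = 3.22e-07). These 4 differences held when any of the libraries compared was left out. PS gave 12.8 and 11.2 CPM, PcG 13.6 and 11.7, PL 15.2 and 12.1, PH 13.6 and 11.5 and PLH 14.7 and 12.1. PScG, at 7.9 and 9.32, was below ScG (15.8 and 11.5) by 0.66 ± 0.19 (adjusted p = 0.0163; lost without PScG library 1 or ScG library 1), and ZScG gave 10.3 and 9.79. The remaining groups were LH (13.2 and 14.8), ZS (11.2 and 13.9) and ZcG (15.9 and 14.7).

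A peak 5814 bp downstream of Tnfsf10 (456 bp, chr3:27345479-27345934) was higher in all 17 stimulations, P included. It measured 1.86 and 3.09 CPM in the control, 5.8 and 4.98 with P, 8.2 and 6.38 with cG, and 7.26 and 8.0 in ZScG. The log2 fold changes ran from 0.89 (L) to 1.60 (PS and ZScG). Without Ctrl library 1 the calls of P, L, H, Z, PL, PH and ScG were lost. Those of L, H, Z, PH and ScG were also lost without a library of their own group (L 1, H 2, Z 1, PH 2 and ScG 2). The other 3 Tnfsf10 peaks were called in no stimulation, and their highest was 0.33.

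Tnfsf9, whose product costimulates T cells through Tnfrsf9, opened at its start and at sites on both sides. The strand of Tnfsf9 was not given, so the stronger of the peaks near either end was taken as its start peak. That peak (1859 bp, chr17:57104261-57106119), over the lower-coordinate end, rose from 8.74 and 9.55 CPM in the control to 20.8 and 23.8 in ScG and 19.6 and 21.6 in PScG, and to 17 and 17.3 with S. It was higher in 15 of 17 stimulations, with H (12.5 and 12.8, adjusted p = 0.0738) and Z (12.2 and 12.5, adjusted p = 0.169) not called. The ScG value was 1.28 ± 0.17 (adjusted p = 2.16e-10) at a mitochondrial share like that of the control. The calls of P, L, PH, LH and PLH were lost without Ctrl library 1, and those of L, PH and LH also without Ctrl library 2. Each was also lost without the first library of its own group, and those of L and LH without the second. A peak 6264 bp away (chr17:57097930-57099023), inside the noncoding genes Gm11110 and Gm46589, was higher in all 17, from 3.06 and 3.47 CPM in the control to 15.0 and 12.5 in PS, and 15 of these calls held without any single library.

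Beyond the higher-coordinate end of Tnfsf9, 814 bp away, a peak (chr17:57108572-57109243) was higher in 12 of 17 and highest in PL (8.25 and 8.35 CPM, against 2.4 and 3.57), and 8 of the calls were lost without Ctrl library 1. The widest range at the locus belonged to a peak 3611 bp away (chr17:57111369-57111768) that held 3 and 1 counts in the control libraries, 1 and 0 with Z, 20 and 32 with L and 26 and 45 in PcG. It was called in 13 stimulations, and 12 of the 13 calls, all but that of PcG, were lost without Ctrl library 2. The most accessible peaks per length at this locus, at 19.9 and 14.3 CPM per kb (chr17:57112741-57113685 and chr17:57096046-57096979), were called in 0 and 1 of 17. Small peaks at chr17:57100363-57100659 and chr17:57102355-57102582 were lower in 2 stimulations each, and none of these 4 calls held when each library in turn was left out.

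Tnfsf4, whose product binds Tnfrsf4 on activated T cells, changed most at a peak 5822 bp beyond the higher-coordinate end of the gene (877 bp, chr1:161424028-161424904). The control libraries gave 1.75 and 1.16 CPM, P 2.37 and 2.89, L 3.18 and 3.5, H 4.64 and 3.62, S 5.36 and 3.57, cG 4.85 and 4.44, and Z 6.43 and 5.25. Z, with few calls elsewhere, was the highest single ligand by mean. The fold change of Z was 2.01 ± 0.34 on the log2 scale (adjusted p = 4.53e-06). P was the only one of the 17 stimulations not called (0.87 ± 0.36, adjusted p = 0.0762), and the L call was lost without Ctrl library 2.

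The highest levels at this Tnfsf4 peak were 12.6 and 15.6 CPM in ZScG, 10.8 and 15.3 in ZS, 8.69 and 11.1 in ZcG, and 11.2 and 8.63 in ScG. The other combinations gave 6.91 and 8.26 (PLH), 6.2 and 6.62 (PScG), 6.32 and 6.01 (PH), 6.47 and 4.91 (PcG), 5.38 and 5.31 (LH), 5.74 and 4.69 (PL), and 5.02 and 5.01 (PS). The leading 4 groups did not overlap the rest. ZScG stood 3.28 ± 0.31 above the control (adjusted p = 1.49e-18). ZScG, ZcG, ScG and 1 of the ZS libraries (58.1%) were also those with the high mitochondrial share among the combinations. The control had that share and the lowest level of all, and the part of the share in the order of the stimulated groups was not tested.

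The start peak of Tnfsf4, chosen as for Tnfsf9 (1010 bp, chr1:161394642-161395651, over the lower-coordinate end), was highest with S, at 9.16 and 8.24 CPM, and next in ZScG, at 8.72 and 7.58, against 2.51 and 3.76 in the control. It was called in 12 of 17 stimulations, not with P, H, Z, PH or PS. S exceeded P by 0.95 (adjusted p = 0.00169) and H by 1.24. Without Ctrl library 1, 10 of the 12 calls were lost, and those of S and ZScG remained. The S against P and S against H differences were lost without P library 2 and H library 1, respectively. Inside the gene, a peak of 648 bp (chr1:161406248-161406895) was higher in 14 of 17, from 7.65 and 8.2 CPM in the control to 22.4 and 25.5 in PScG, with the L and PH calls lost without Ctrl library 1. S and cG exceeded P and H there by 0.81 to 0.98.

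**Figure D3:**
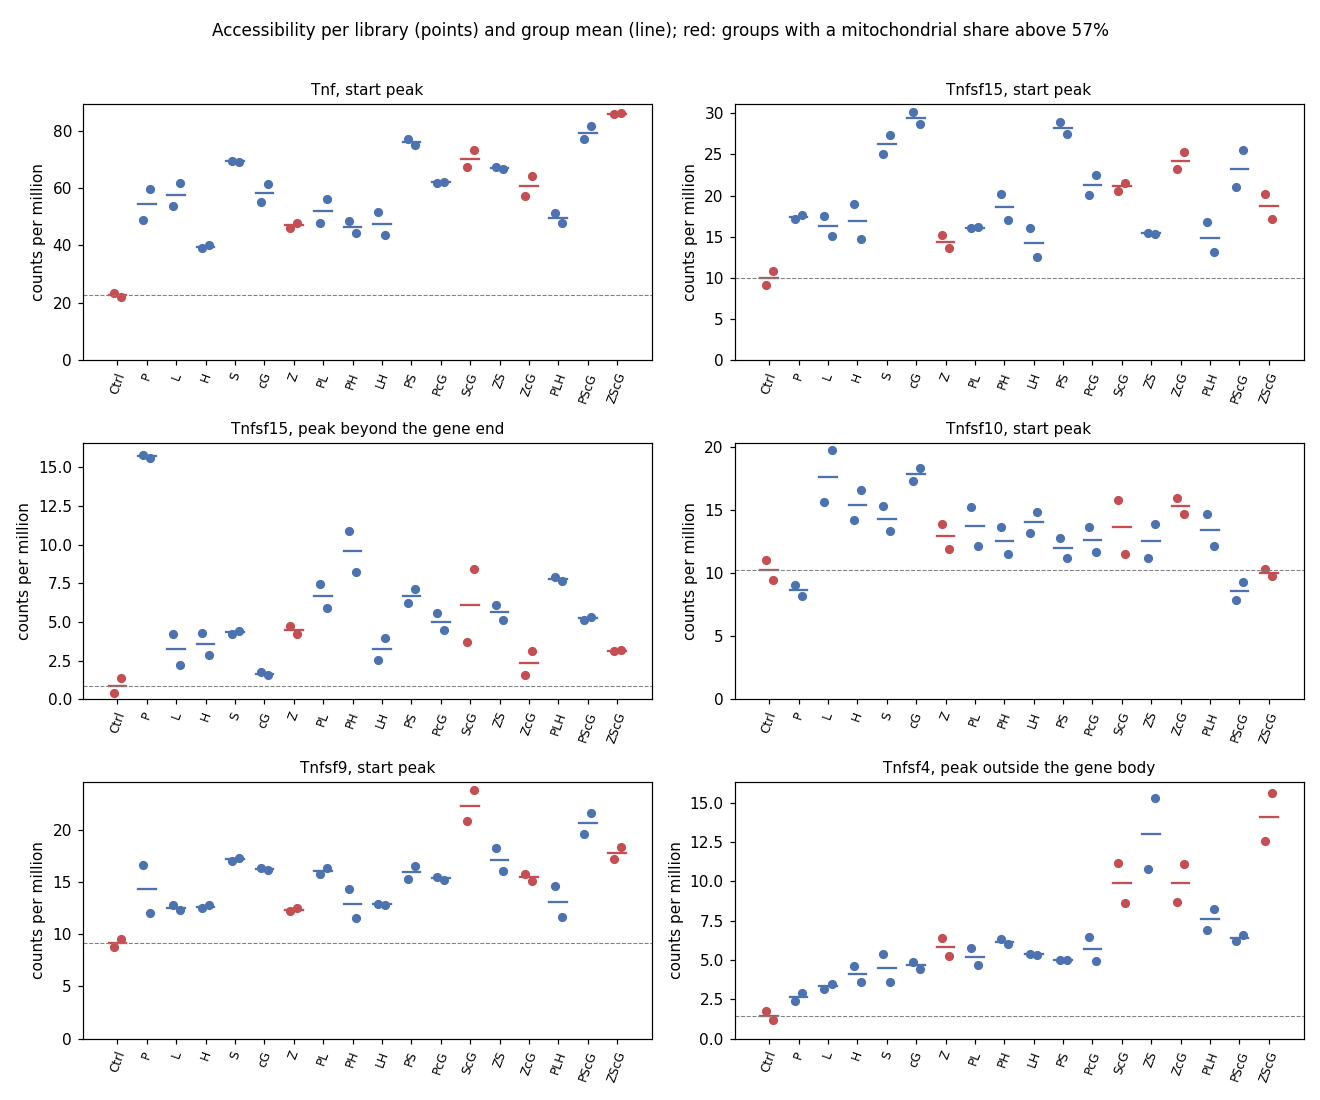
CPM in each library (points) and group mean (line) for 6 peaks in the 18 groups, with the control mean dashed and, in red, the groups with a mean mitochondrial share above 57%. All stimulated libraries exceed the control at Tnf, and P lies below it, without a call, at the Tnfsf10 start. P at 15.7 leads the peak beyond Tnfsf15, and ZScG at 14.1 leads the peak outside Tnfsf4.

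Taken over all 47 peaks, the direct comparisons of single ligands placed S and cG above P, L and H at more peaks than below. P was lower than S at 21 peaks (11.6% of all tested peaks were lower), lower than cG at 15 (11.1%), lower than L at 4 (5.19%) and lower than H at 3 (4.96%), and it was higher than S at 3, cG at 2, L at 2 and H at 3. L was lower than S at 10 (5.05%) and lower than cG at 6 (3.32%), and higher at 2 and 0. H was lower than S at 10 (5.1%) and lower than cG at 7 (4.22%), and higher at 1 and 1. Of all peaks called, 52.6% were higher for P against S, 53.3% for P against cG and 53.1% for P against L. For P against H this share was 59.2%, for L against S 48.8% and for L against cG 54.1%. It was 43.7% for H against S and 42.6% for H against cG. L exceeded H at 2 (2.3%), and S exceeded cG at 1 (0.729%), the peak beyond the end of Tnfsf15. In all 470 tests, 76 were lower for the first-named ligand (5.22% over all peaks) and 17 were higher (5.75%), 10 of these at the P-led peaks described beyond Tnfsf15. The S against cG call (1.38 ± 0.32, adjusted p = 0.00889) was lost when any of its 4 libraries was left out.

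Where a pair departed from the sum of its ligands' separate log2 changes at these loci, it lay below that sum. An interaction was taken as the pair minus both single ligands plus the control, on the log2 scale. Of 376 tests, 57 were below 0 (3.1% over all tested peaks) and 0 above (2.07%). In edgeR, 5 of the 376 were above 0 at an unadjusted p under 0.05, and the DESeq2 Wald test called 0 above. By pair, the calls below 0 numbered 16 for ScG (7.52%), 10 for LH (2.62%), 7 for PS (2.9%), 7 for PcG (2.17%), 7 for ZS (2.6%), 5 for PL (4.18%), 3 for ZcG (1.74%) and 2 for PH (1.08%). Fewer pair interactions were called without Ctrl library 1, and the share of all tested peaks in that fit was not taken. The same 2 control libraries enter every interaction, so a level specific to them would move all 8 together. S and cG came from groups with a low mitochondrial share and ScG from one with a high share, and the part of that difference was not tested.

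Tnf passed in all 8 pairs, from -1.0 ± 0.15 (ZcG, adjusted p = 7.56e-07) to -1.42 ± 0.15 (PL, adjusted p = 9.44e-15). The pair levels of Tnf were close to those of the higher single ligand: PL reached a log2 fold change of 1.20, against 1.35 for L and a sum of 2.62 for both. The interaction with the lowest p lay at the 6310 bp Tnfsf15 peak with ScG (-2.95 ± 0.19, adjusted p = 1.53e-31). ScG libraries there measured 31.5 and 28.7 CPM, below those of S (38.9 and 50.7) and cG (41.5 and 54.2). At the same peak PH met the sum (-0.01 ± 0.19, 95% interval -0.39 to 0.37), with 42.5 and 44.5 CPM against 23.0 and 25.4 for P and 15.2 and 18.3 for H. A pair exceeded its higher single ligand in fitted fold change at 11 (LH) to 25 (PS) of the 47 peaks. These counts were not tested and were not taken over all peaks, and they include the peaks almost closed in the control. The peak beyond Tnfsf15 where P led passed in PL, PH, LH, PS, PcG and ZS, with PS lowest (-3.45 ± 0.45, adjusted p = 9.61e-10), and its LH and ZS calls were lost without Ctrl library 1. The 8 Tnf calls and the ScG call at the 6310 bp peak held without any single library.

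**Figure D4:**
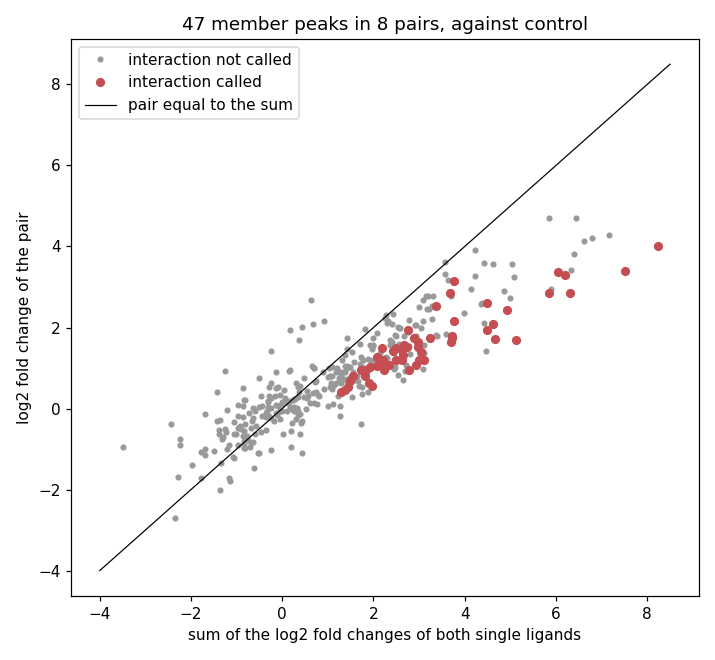
Log2 fold change of each pair against the control (vertical axis) and the sum of both single ligands' log2 fold changes (horizontal axis) for 47 peaks in 8 pairs, with the line of equality. The 57 called interactions (red) lie below the line; both axes use the same 2 control libraries.

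The triplet interactions, which ask whether 3 ligands together depart from what their pairs and singles sum to, were all above 0 where called. They numbered 4 for ZScG (0.974% of all tested peaks), 3 for PScG (1.03%) and 2 for PLH (0.511%), with 0 below (0.722%). Below 0, 1 of 141 had an unadjusted p under 0.05 in edgeR, and the DESeq2 Wald test called 0. Tnf passed in all 3, led by ZScG at 1.34 ± 0.21 (adjusted p = 2.79e-06), with PLH at 1.25 and PScG at 1.22. This interaction was the triplet minus its 3 pairs plus its 3 single ligands minus the control. Pairs below their sums therefore raise it, and a value above 0 need not mean a level above the pairs. Tnf measured 51.4 and 47.8 CPM in PLH, against 47.7 and 56.3 in PL. The remaining 6 calls were at Tnfsf15: its start and its 6310 bp peak in PScG and ZScG, its 9228 bp peak in ZScG and the P-led peak in PLH. The calls at the 9228 bp peak and the P-led peak were lost without Ctrl library 1 and without either of 2 stimulated libraries each (ZScG 2 and Z 1; H 1 and L 1), and the other 7 held without any single library. Against the pairs they contain, the 3 triplets differed at 12 of 423 tests (1.11% over all tested peaks), 6 higher and 6 lower, against 12 higher and 3 lower when scaled by total counts. Of these, 9 were at Tnfsf15, and the others were the Tnf, Tnfsf10 and Ltb start peaks. Only the PScG against PS and PLH against LH calls at the 9228 bp peak held without any single library.

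Across the 18 group means of log2 CPM, the start peaks of Tnf and Tnfsf9 varied most alike among the member starts (Pearson r = 0.871), and those of Tnf and Tnfsf10 did not vary together (r = -0.0594). The broad Tnfsf15 peaks varied together (r = 0.946). Among 10924 genes with a start peak away from these loci, the start of Tnf was most like Vasn (r = 0.965), Plaur (0.937) and Gadd45b (0.91). That of Tnfsf10 was most like Tor3a (0.889), Ifi44 (0.889) and Ccl12 (0.88), and that of Tnfsf15 like Capg (0.881), Gna13 (0.869) and Psme2 (0.864). Tnfsf9 was most like Map3k10 and Zfp607b, which share a start peak (0.928), and Adamtsl5 (0.902). Ltb was most like Tob2 (0.944), Arhgdia (0.94) and H2-Q4 (0.932), and Tnfsf4 like Nasp (0.81), Grap (0.81) and AA467197 (0.805). These are descriptions over 18 points that share libraries, depth and the control.

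All 7 receptors examined had a start peak, and over 17 stimulations Tnfrsf1b, a TNF receptor, was higher in 8 and Tnfrsf25, the receptor of Tnfsf15, in 5. Tnfrsf10b, the mouse TRAIL receptor, was lower in 8, Ltbr in 5 and Tnfrsf4 in 5, and Tnfrsf1a and Tnfrsf9 were called in 0. Of 10 other family ligands, 7 had a start peak, and Tnfsf13b (BAFF) was higher in 8, Cd70 in 3 and Tnfsf12 in 4, with Tnfsf12 also lower in 1, while Tnfsf8 and Tnfsf14 were each lower in 2. Among 11 signalling genes downstream of the receptors, Nfkb2 was higher in 16 and the inhibitor Tnfaip3 in 12, whereas the kinase Ripk1 was lower in 12 and the ubiquitin ligase Birc2 in 11. Relb was higher in 6, Nfkbia in 4, and Traf2 in 3, Birc3 was higher in 1 and lower in 2, and Nfkb1 was lower in 3. Over the 17 contrasts, 13.0% of all tested peaks were called higher and 12.3% lower, and the smaller of these counts lie near that share. The Tnfrsf10b peak averaged only 1.39 CPM. Calls in these lists were not followed in the fits with a library left out. The median log2 fold change over a list stayed between -0.32 and 0.14 for the receptors, -0.60 and 0.33 for the other ligands, and 0.02 and 0.34 for the signalling genes.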

How the data were processed

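ATAC-seq was deposited by the authors as raw counts for 119751 peaks in 36 libraries. Per the submitters' processing notes, Bowtie2 2.2.9, MACS2 (given there as version 1.4), bedtools and featureCounts were used with mm10. Whether peaks were called on pooled libraries and how duplicate reads were treated is not given in the sources used here. Total counts were 19097027 to 39977088 per library. The 1 peak on the mitochondrial genome was left out, as were 286 peaks under edgeR's filterByExpr (minimum count 10), which left 119464. All 47 member peaks passed.

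One quasi-likelihood model over the 18 groups was fitted in edgeR 4.0.16 (R 4.3.3) with TMM scaling and a trended dispersion, and the Benjamini-Hochberg adjustment ran over all tested peaks within each of 47 contrasts, with calls at 0.05. Errors are standard errors and intervals are 95%. The scripts were tested on simulated data. Gene positions, promoters and motifs came from RefSeq tables. The alternatives were other scalings, no filter, the mitochondrial peak kept, the DESeq2 1.42.0 Wald test, dispersions for single peaks, a replicate term, a 2 kb window and leaving out each library. With a library left out, the lone library of its group was assumed to vary like those of the other groups.

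Peaks were named by rule: for each gene the start peak (within 1 kb of the start), the peak of at least 1 CPM with the widest range of group means, and the peak with the lowest p in each family of interactions. Other peaks with values were chosen after their values were seen. The members and lists were chosen with earlier results of these data known. Some of the marker genes examined are not reported here.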

Additional observations from a re-analysis of the deposited data

Results flagged for a closer look

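A difference of effects between groups was found in all 11 combinations for which an interaction could be tested, in edgeR's quasi-likelihood test with Benjamini-Hochberg adjustment over all tested peaks. Among the pairs, the effect of 1 ligand differed with and without the other, each time with the pair below the sum. The counts out of 47 peaks follow, with the share of all tested peaks called below 0 in brackets. They were 16 for ScG (7.52%), 10 for LH (2.62%), 7 for PS (2.9%) and 7 for PcG (2.17%). For ZS the count was 7 (2.6%), for PL 5 (4.18%), for ZcG 3 (1.74%) and for PH 2 (1.08%). Among the triplets, the departure from pairs and singles was above 0 each time it was called. It was called at 4 peaks for ZScG (0.974% of all tested peaks), 3 for PScG (1.03%) and 2 for PLH (0.511%). A value above 0 need not mean a level above the pairs. Tnf was among the peaks called in all 11. The 2 control libraries enter each of these tests.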

How the results depend on the processing

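None of the 211 calls at the peaks named by rule changed sign under the alternatives run. Of the recomputed counts of called peaks, 346 stayed within 1.5 times the main count and 15 did not. A window of 2 kb holds fewer peaks and so fewer tests, and it holds none of the peaks given to Lta. It gave 183 calls against the control (359 at 10 kb), 55 between single ligands (93) and 35 pair interactions (57). Scaling by total counts gave 107 pair interactions (57), 24 triplet interactions (9) and 21 calls for P (13). Over all tested peaks, that scaling raised the calls from 17259 to 32623 for the ScG interaction and from 936 to 3971 for the PLH interaction. For P against the control they rose from 24529 to 26608, and the median log2 fold change moved from -0.039 to 0.285. The cause was not tested. Leaving out each library in turn gave 34 to 60 pair interactions, 8 to 13 calls for P (13), 11 to 20 for L (24), 6 to 11 for H (14), 13 to 17 for PH (20) and 8 to 14 for LH (17), with the lowest of each without Ctrl library 1. For L the count was 14 without Ctrl library 2 and 14 without L library 1, and for H it was 8 without H library 2. Of the 211 calls, the DESeq2 Wald test lost 4 (Tnfsf9 in P, cG and ZScG at the peak 3611 bp away, and Lta in PScG at the farthest peak) and scaling by total counts lost 2. Leaving out single libraries lost more of the 211 calls than either alternative, as given for the peaks above. Shares over all tested peaks were not taken in the fits with a library left out.

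The replicate numbers of the labels did not pair the libraries: over 153 pairs of groups, same-numbered deviations correlated between -0.04 and 0.03. With the replicate block, the calls were 348 higher and 12 lower against the control, 93 between single ligands, 57 pair interactions, 9 triplet interactions and 12 between triplets and pairs, and the block ended 0 of the 211 calls. With 2 libraries a group and few counts in the control at the weaker peaks, a difference that was not called there is not shown to be absent.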
